A study of Saccharomyces cerevisiae with 2 samples.

Results

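The genes described here are the 6 budding yeast genes of the Kennedy pathway in its choline and ethanolamine branches, CKI1, EKI1, PCT1, ECT1, CPT1 and EPT1. They were picked by gene symbol in the platform annotation of the arrays, among 5449 genes measured. Each of the 6 is read by 1 probe set, and none of these probe sets carries the suffix letter that marks possible cross-hybridization. Total RNA was measured on biotin-labelled Affymetrix arrays in an acs2-Ts1 strain and in a strain with wild-type ACS2, 1 deposited sample each. The ACS2 enzyme, an acetyl-CoA synthetase outside the mitochondria, turns acetate into the acetyl-CoA from which fatty acids are built and histones are acetylated.

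The acs2-Ts1 strain, YHT652, carries the temperature-sensitive allele on the plasmid pHT215. The ACS2 strain, YHT651, carries the wild-type gene on the plasmid pHT112-1. What they share is the BY4741 background of mating type a, the alleles his3delta1, leu2delta0, met15delta0 and ura3delta0, the replacement of the chromosomal ACS2 gene by HygMX, and a centromeric plasmid with URA3 as its marker. Cells grew in YPD, a rich medium, and were shifted to 37 °C for 60 min ahead of RNA extraction. The titles of both samples read as wild type, so the genotype field assigned them. No sample at a lower temperature is part of the series as used here, and the plasmids have different names, so an effect of the impaired enzyme cannot be told apart from differences between strains, plasmids or cultures that would be there without the heat.

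Phosphatidylcholine and phosphatidylethanolamine are the main membrane phospholipids of yeast, and each can be made in more than one way. In the Kennedy pathway a kinase phosphorylates free choline or ethanolamine, a cytidylyl transferase couples the product to CTP, and a phosphotransferase joins the activated head group to diacylglycerol. The other route starts from CDP-diacylglycerol, passes through phosphatidylserine and phosphatidylethanolamine, and reaches phosphatidylcholine by methylation.

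Values are the authors' probe set intensities on a linear scale in arbitrary units, each the mean of 2 arrays, normalized by the authors with controls. There are no replicates, so no test, standard error or p-value is given, and every difference is one between these samples. "Lower" and "higher" describe acs2-Ts1 relative to ACS2, and the log2 ratio is that of acs2-Ts1 over ACS2. Levels of different genes are not ranked, because they come from different probes. The arrays read RNA of whole cultures, so fewer cells with a transcript and less of it per cell cannot be told apart.

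The 27 control probe sets for bacterial and phage RNA added at hybridization gave log2 ratios with an SD of 0.17 around a median of -0.005, which serves as a measure of technical spread, though the authors may have normalized on these controls. For 7 yeast genes that are read by several control probe sets, the log2 ratios of those probe sets had a pooled SD of 0.35. Single genes spread more, with the 3 probe sets of SRB4 between -2.41 and -0.81. ACS2 itself read 12426 in acs2-Ts1 and 10257 in ACS2, which does not check the labels since both strains carry the gene. The genes STE2, MFA1 and MFA2 of mating type a read between 1105 and 2725 in acs2-Ts1 and between 2123 and 4027 in ACS2. MF(ALPHA)1 of the other mating type, at 21.0 in acs2-Ts1 and 25.5 in ACS2, was below the background limit in both. That limit, the 95th percentile of probe sets for genes outside the species, was 46.3 in acs2-Ts1 and 49.1 in ACS2. HIS3, of which his3delta1 is a partial deletion, read 882 in acs2-Ts1 and 1650.1 in ACS2, and where its probes lie relative to the deletion is not known here. The plasmid marker URA3 read 7059 in acs2-Ts1 and 1853 in ACS2, a 3.81-fold higher level, and the part of this difference in the results was not tested. The control probe sets for the 3' and 5' ends of ACT1, a check of RNA integrity, had a ratio of 1.37 in acs2-Ts1 and 1.42 in ACS2.

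All 6 Kennedy pathway genes were lower in acs2-Ts1 on the authors' scale, as were 86.4% of the 5449 genes, and for PCT1 and ECT1 the direction turns relative to the all-gene median. By step of the pathway, both kinase genes and both phosphotransferase genes were at least 2-fold lower, while both cytidylyl transferase genes were within 2-fold. The count of 4 of 6 at least 2-fold lower stands beside 55.9% of all genes, so the share over the pathway is near the background. None of the 6 was at least 2-fold higher, against 3.67% of all genes. The median log2 ratio of the 6 genes was -1.71, a 3.28-fold lower level, and that of all genes was -1.12, or 2.18-fold lower. Relative to the all-gene median, 1 of 6 was at least 2-fold lower, against 6.61% of all genes. Both readings are given for each of the 6 genes below, and for the other lists by their medians, since the direction of the global difference rests on the authors' scaling to controls.

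**Figure D1:**
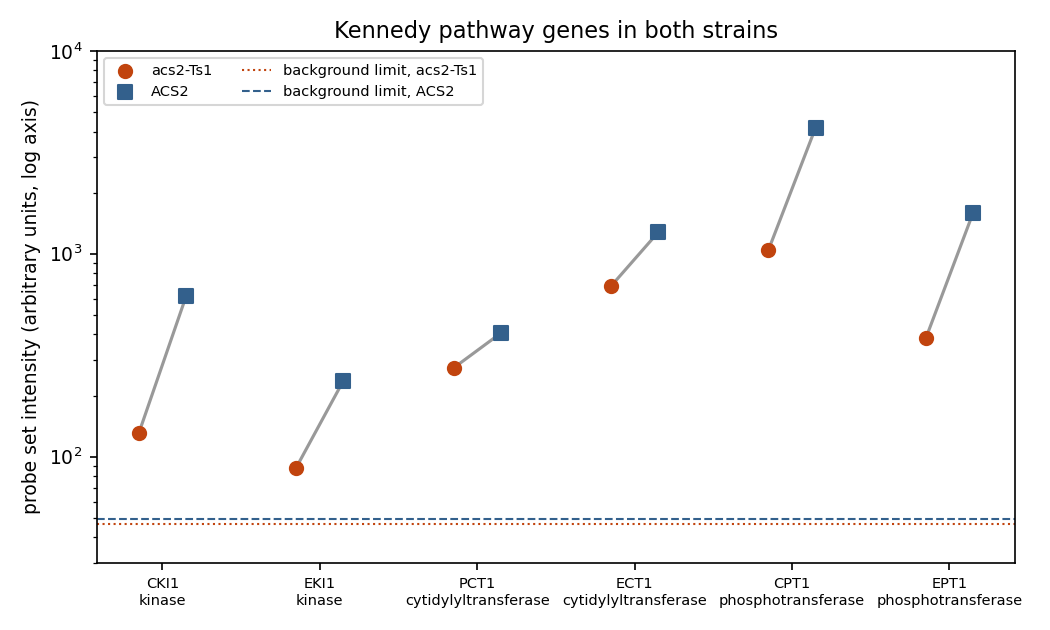
Probe set intensity (arbitrary units, log axis) of the 6 genes in pathway order. Circles are acs2-Ts1 and squares are ACS2, each 1 deposited sample, joined by a line for each gene, and the horizontal lines are the background limits of 46.3 and 49.1. Every circle lies below its square and above the limits, and the lines of PCT1 and ECT1 are the flattest.

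The first step is catalysed by kinases. CKI1 (YLR133W), the choline kinase, which also phosphorylates ethanolamine, read 131 in acs2-Ts1 and 617 in ACS2. Its log2 ratio of -2.24, or 4.72-fold lower, was the lowest of the 6, and 4.64% of all genes had a lower ratio. Relative to the all-gene median it was at -1.11. EKI1 (YDR147W), the ethanolamine kinase, read 88.4 in acs2-Ts1 and 237 in ACS2, a log2 ratio of -1.42 (2.68-fold lower). Its signal in acs2-Ts1 was 1.91 times the background limit. The deleted gene LEU2 read 77.5 in acs2-Ts1 and 68.0 in ACS2, and STE3, which is silent in cells of mating type a, read 59.0 in acs2-Ts1 and 214 in ACS2. EKI1 was thus read close to the signal of genes without a transcript, and STE3 had a lower log2 ratio than EKI1, at -1.86. EKI1 was at -0.30 relative to the all-gene median and at 0.031 with the trend of the ratio with level removed. On the log2 scale the ratio of CKI1 was 0.82 lower than that of EKI1.

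The second step makes CDP-choline and CDP-ethanolamine. PCT1 (YGR202C), the choline-phosphate cytidylyl transferase, known as a rate-controlling enzyme of the choline branch, read 274 in acs2-Ts1 and 406 in ACS2. At a log2 ratio of -0.57, or 1.48-fold lower, it had the highest ratio of the 6, and 72.4% of all genes had a lower ratio. ECT1 (YGR007W), its counterpart for ethanolamine phosphate, read 692 in acs2-Ts1 and 1275 in ACS2. Its log2 ratio was -0.88, or 1.84-fold lower. Relative to the all-gene median the direction of both turns, to 0.55 for PCT1 and 0.24 for ECT1, and so it does with the trend removed. Their ratios differed from each other by 0.31 on the log2 scale, which is less than the pooled SD of 0.35 between probe sets of 1 gene. With the trend removed they differed by 0.61, which is more than that SD.

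The last step takes place in the membrane, where the head group is joined to diacylglycerol. CPT1 (YNL130C), the cholinephosphotransferase, read 1040.4 in acs2-Ts1 and 4175 in ACS2, a log2 ratio of -2.00 (4.01-fold lower). EPT1 (YHR123W), the ethanolaminephosphotransferase, which can also use CDP-choline, read 382 in acs2-Ts1 and 1582 in ACS2, a log2 ratio of -2.05 (4.14-fold lower). These ratios lay within 0.05 of each other on the log2 scale of the authors' values. With the trend of the ratio with level removed, CPT1 was at -1.28 and EPT1 at -0.96, a difference of -0.32. Relative to the all-gene median they were at -0.88 and -0.93. With CKI1, these were the 3 genes at least 4-fold lower, a size of difference seen in 9.51% of all genes. CPT1 lies close to that threshold, and the count is 2 when ratios are centred on control probe sets.

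**Figure D2:**
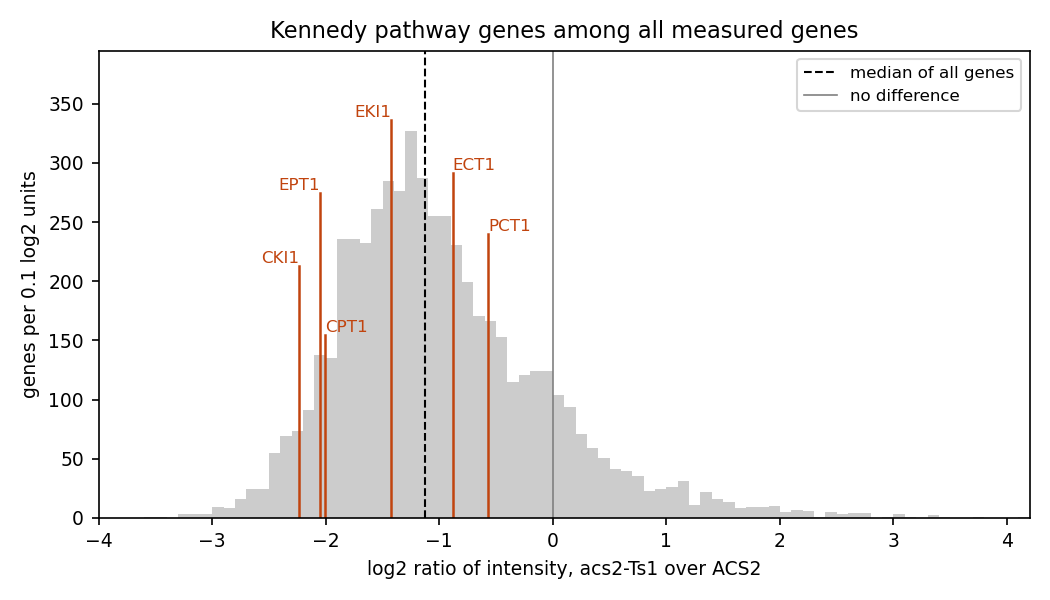
Number of genes per bin of 0.1 in the log2 ratio of acs2-Ts1 over ACS2, for 5449 genes, with the 6 Kennedy pathway genes as vertical lines of arbitrary height. CKI1, EPT1, CPT1 and EKI1 lie left of the all-gene median of -1.12 (dashed), and ECT1 and PCT1 lie between it and 0.

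Differences between genes on the same arrays do not depend on a constant factor between the samples, so they hold under any centring. A correction that varies with level does change them. In the choline branch the log2 ratio of CKI1 was 1.67 lower than that of PCT1, and that of CPT1 was 1.43 lower. In the ethanolamine branch EPT1 was 1.17 lower than ECT1, while EKI1 was 0.54 lower than ECT1. The cytidylyl transferase thus had the highest ratio of each branch on the authors' scale. The spread of 1.60 between the probe sets of SRB4 is of similar size to the widest of these gaps. The gap between EKI1 and ECT1 is the smallest of these, and shrinks to 0.12 when the trend of the ratio with level is removed. In that setting the differences from PCT1 were -1.61 for CKI1 and -2.04 for CPT1, and that of EPT1 from ECT1 was -1.11. The medians of the branches were -2.00 for choline and -1.42 for ethanolamine, each over 3 genes.

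The difference between the strains was smaller for abundant transcripts, so each gene was also set beside genes of a similar level in ACS2, in 10 bins of about 545 genes. CPT1 stood farthest from its bin. The brightest bin, from 3420.2 to 19111, had a median log2 ratio of -0.36, and 4 of its 545 genes had a lower ratio than CPT1. In that bin 15.6% of the genes were at least 2-fold lower. EPT1 lay in a bin with a median of -1.17, where 20 of 545 genes had a lower ratio. CKI1 lay in a bin with a median of -1.31, where 32 of 544 genes had a lower ratio. EKI1 was 0.11 below the median of its bin, and thus near the middle of it. ECT1 was 0.28 above its bin's median, and PCT1, with 84.8% of its bin at a lower ratio, was 0.75 above. Binned by the mean level of both samples, CPT1 lay in a bin with a median of -0.82, where 36.9% were at least 2-fold lower and 6 of 545 genes lay below it. EPT1 had 16 genes of its bin below it and CKI1 had 46, while EKI1 was 0.05 above its bin's median. These positions describe the arrays and are no test.

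**Figure D3:**
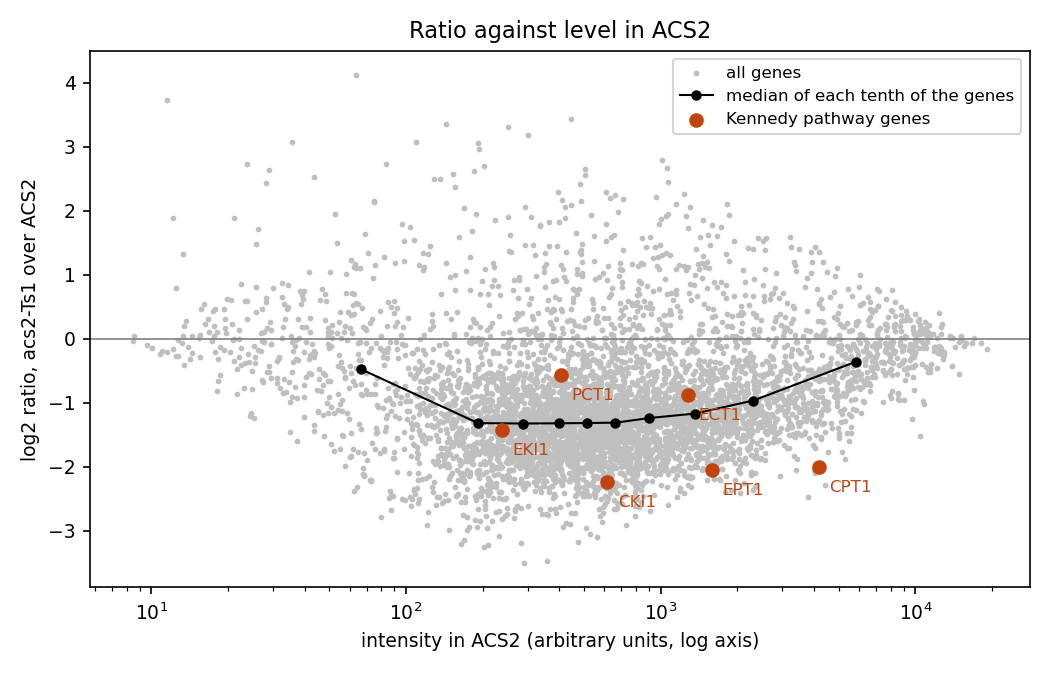
Log2 ratio of acs2-Ts1 over ACS2 against intensity in ACS2 (arbitrary units, log axis) for 5449 genes (grey), with the median of each of 10 level bins (black) and the 6 Kennedy pathway genes (red). CPT1, EPT1 and CKI1 lie 1.65, 0.88 and 0.93 below the medians of their bins, and PCT1 lies 0.75 above.

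Gene order, taken from the start positions in the RefSeq table of the R64 assembly, was used to look at the genes on either side. The 12 neighbours had a median log2 ratio of -0.99. Of these, 6 were at least 2-fold lower, against 55.9% of all genes. Among the 12, 3 were below the background limit in at least 1 sample, and 4 of the others were at least 2-fold lower. The neighbours of CPT1 had log2 ratios of -0.87 (TOM22) and 0.09 (DGR1, which was below background in both samples). Those of EPT1 were at -2.01 (CIA2) and -1.54 (NDT80, which was below background in acs2-Ts1). CIA2 thus had a ratio near that of EPT1, and TOM22 one above that of CPT1. Each comparison rests on 1 neighbour above the limit, and 9.51% of all genes were at least 4-fold lower, as CIA2 was. The neighbours were named after their values were seen.

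The list for the CDP-diacylglycerol route holds 13 genes, which serve phosphatidylserine and its products, phosphatidylinositol, and the mitochondrial lipids phosphatidylglycerol and cardiolipin. Of these, 7 were at least 2-fold lower, a share close to the 55.9% of all genes. Their median log2 ratio was -1.01, or 0.12 relative to all genes, and relative to all genes PSD1 (0.48), CHO2 (0.21) and OPI3 (0.12) lay above 0. With the trend of the ratio with level removed, PSD1 stayed above 0 at 0.35, while CHO2 (-0.28) and OPI3 (-0.48) lay below it. CHO1, for phosphatidylserine synthase, read 956 in acs2-Ts1 and 2795 in ACS2 (2.92-fold lower). PSD1, the mitochondrial phosphatidylserine decarboxylase, was 1.56-fold lower at 869 in acs2-Ts1 and 1354 in ACS2. The methyltransferases that turn phosphatidylethanolamine into phosphatidylcholine differed by less than CPT1, with 1799 in acs2-Ts1 and 3401 in ACS2 for CHO2 (1.89-fold lower). OPI3, for the final methylations, read 2181 in acs2-Ts1 and 4387 in ACS2 (2.01-fold lower). Of the last enzymes of both routes to phosphatidylcholine, CPT1 thus had the lower log2 ratio, by 1.00 against OPI3, or by 0.80 with the trend removed. INO1, for inositol-3-phosphate synthase, was the exception in the list at 2787 in acs2-Ts1 and 1277 in ACS2, or 2.18-fold higher. INM1, an inositol monophosphatase, had the lowest ratio of the list (3.52-fold lower), and GEP4, the phosphatase that makes phosphatidylglycerol in mitochondria, was 2.83-fold lower.

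CPT1 and EPT1 draw on diacylglycerol, and 11 of the 13 listed genes for making and using phosphatidate and diacylglycerol were at least 2-fold lower, against 55.9% of all genes. The median log2 ratio of the list was -1.20, only 0.08 below that of all genes. PAH1, the phosphatidate phosphatase that supplies diacylglycerol for lipid synthesis, read 146 in acs2-Ts1 and 519 in ACS2 (3.54-fold lower). Among other enzymes that consume diacylglycerol, the acyltransferases of triacylglycerol synthesis LRO1 and DGA1 were 6.24-fold and 3.70-fold lower. The signal of LRO1 in acs2-Ts1 was low, at 2.32 times the background limit. DGK1, the diacylglycerol kinase, was 2.30-fold lower, near the all-gene median. The acyltransferases SCT1 and GPT2 catalyse the same entry step and differed from each other, with 1104 in acs2-Ts1 and 1058 in ACS2 for SCT1, and 373 in acs2-Ts1 and 1159 in ACS2 for GPT2.

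The free choline and ethanolamine used by the kinases come from uptake and from lipid breakdown. The list of 11 supply genes also covers inositol, with its transporters ITR1 (-0.42) and ITR2 (-0.44), so its median is not one of choline and ethanolamine supply alone. That median log2 ratio was -0.41, or 0.71 relative to all genes, with 3 of 11 below the all-gene median. Of the 11, 3 (27.3%) were at least 2-fold lower, against 55.9% of all genes, and 1 was at least 2-fold higher, against 3.67%. Among genes that get a fold, 2 were lower and 1 higher by 2-fold or more. HNM1, the transporter for choline and ethanolamine, read 3064 in acs2-Ts1 and 3465 in ACS2, which is 1.13-fold lower as measured and turns to 0.95 on the log2 scale relative to all genes. Its log2 ratio of -0.18 lies 2.06 above that of CKI1, the kinase that receives the imported choline. With the trend of the ratio with level removed, HNM1 was at 0.32 and the gap to CKI1 shrinks to 1.17. SPO14, the phospholipase D that releases choline from phosphatidylcholine, was 4.19-fold lower at 177 in acs2-Ts1 and 741 in ACS2. GDE1, a phosphodiesterase that releases choline from glycerophosphocholine, read 75.7 in acs2-Ts1 and 374 in ACS2. It gets no fold, since LEU2 was brighter in acs2-Ts1. NTE1, which deacylates phosphatidylcholine, was 1.33-fold lower. PLB3, a phospholipase B, was 2.64-fold higher at 3637 in acs2-Ts1 and 1375 in ACS2. DPL1, the lyase that makes ethanolamine phosphate from phosphorylated sphingoid bases and so feeds ECT1, was 2.84-fold lower.

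Many phospholipid genes, CKI1 and CPT1 among them, are known targets of the activators Ino2 and Ino4 and the repressor Opi1. INO2 read 194 in acs2-Ts1 and 325 in ACS2, and OPI1 read 243 in acs2-Ts1 and 467 in ACS2. INO4 read 77.3 in acs2-Ts1, no brighter than LEU2, and 182 in ACS2. The median log2 ratio of the 6 listed regulators was -0.85, or 0.28 relative to all genes, and 1 of 6 (INO4) lay below the all-gene median. At least 2-fold lower was 1 of 6, against 55.9% of all genes, and this was INO4, which gets no fold. INO1, CHO1 and CKI1 are all regulated by these factors, and had log2 ratios of 1.13, -1.55 and -2.24.

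**Figure D4:**
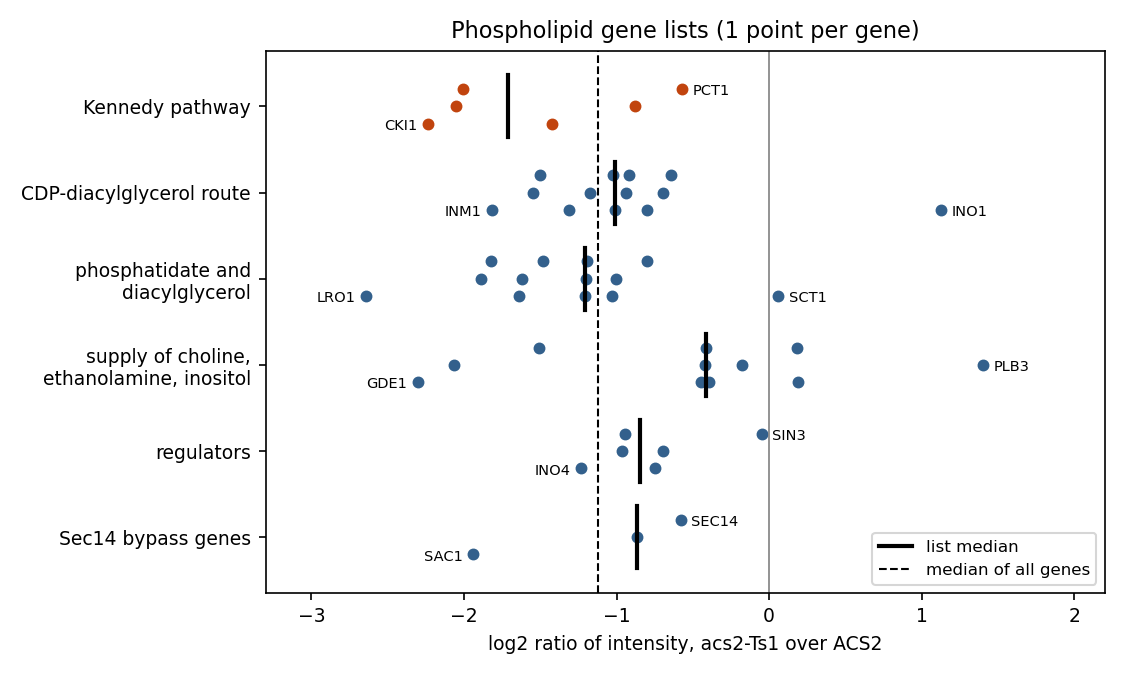
Log2 ratio of acs2-Ts1 over ACS2 for the genes of 6 phospholipid lists, 1 point per gene, with the list median (bar) and the all-gene median of -1.12 (dashed). The Kennedy pathway has the lowest median, -1.71, and the supply list the highest, -0.41, and points are spread vertically only for legibility. These medians still hold the trend of the ratio with level. With that trend removed the Kennedy median rises to -0.41, and the other lists were not compared in that way, so the order of the lists may differ.

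Over all 46 listed phospholipid genes outside the Kennedy pathway the median log2 ratio was -0.98, or 0.14 relative to all genes. At least 2-fold lower were 23 of the 46 (50%), against 55.9% of all genes, and 2 were at least 2-fold higher, against 3.67%. Among those that get a fold, a difference of 2-fold or more was seen downward in 21 and upward in 2. The listed genes whose log2 ratio was closest to the Kennedy median of -1.71 were GPT2 at -1.64, DPP1, a lipid phosphatase, at -1.62, and INM1 at -1.82. Likeness here rests on the absolute difference of 1 ratio between 2 samples, and 485 of all genes were at least as close as INM1.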

How the data were processed

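The authors started from 4 arrays, subtracted background with RMA, averaged the 2 arrays of a strain, and fitted a lowess curve to controls to normalize the means, per the labels and the series' description; RMA also stands in the submitters' processing notes. The deposited values are linear probe set intensities. Which controls were fitted, how probes were summarized and which software release was run is not given in the sources used here. Single arrays were not analysed here.

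Of 10928 probe sets, 5498 matched a gene of the species through RefSeq gene identifiers (R64 assembly, names and gene order only). Each of 5449 genes was represented by its brightest probe set, with unsuffixed ones preferred, and 1746 probe sets for genes outside the species gave the background. Log2 ratios had no pseudocount. No fold is given where a value lay under the background limit or was no brighter than LEU2.

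The members, the gene lists and all comparisons were chosen with earlier results of these data known. Named genes are the 6 members, up to 3 genes at each end of a list that differed at least 2-fold, a set of key phospholipid genes, and the 3 genes closest to the members' median; other listed genes named in the text were chosen after their values were seen. The log2 ratio and the trend removal were tested on simulated data with known shifts, while the bins, the lists and the background limit were not. The tolerance for the trend removal was wider than the trend-removed values of EKI1, ECT1, PSD1, CHO2, OPI3 and HNM1. It was also wider than the trend-removed median of the 6 genes, and than the trend-removed gaps between EKI1 and ECT1 and between CPT1 and EPT1. Python 3.11.15, numpy 2.4.6, pandas 2.3.3 and statsmodels 0.14.6 were used. Sequences are not used here, and coordinates only served to order the genes. The number of arrays limits the precision.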

Additional observations from a re-analysis of the deposited data

How the results depend on the processing

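Settings were compared with the SD of 0.17 of the hybridization controls, since there are no replicates. Centring on hybridization controls or on the brighter control probe sets moved none of the 6 ratios, their median or the count at least 2-fold lower beyond it. Centred on the all-gene median, the log2 ratios were -1.11 for CKI1, -0.30 for EKI1, -0.88 for CPT1 and -0.93 for EPT1, while those of PCT1 and ECT1 turned to 0.55 and 0.24, the median was -0.59 and 1 gene was at least 2-fold lower (6.61% of all genes under the same centring). With the trend with level removed by a lowess curve of span 0.30, they were -0.85 for CKI1, -1.28 for CPT1 and -0.96 for EPT1. In that setting they turned to 0.031 for EKI1, 0.76 for PCT1 and 0.15 for ECT1. The median was then -0.41 and 1 gene was at least 2-fold lower, for which the share of all genes was not counted. With 32 added to both values CKI1 was at -2.00 and EKI1 at -1.16, and with background subtracted EKI1 was at -1.60. The count of 3 genes at least 4-fold lower, a threshold added after seeing the data, became 0 under each of the all-gene centring, the trend removal and the added 32. At thresholds of 1.5-fold and 3-fold, 5 and 3 genes were lower. The shares of all genes at these thresholds were not counted, so these counts have no background to be read against. The count of genes at least 2-fold higher was 0 in every setting tried. No paired analysis was possible because each strain is 1 sample. Averaging probe sets and the background filter could change nothing, since each of the 6 genes has 1 probe set and a signal above the limit. Low signal in acs2-Ts1 limits the ratios of EKI1 and CKI1.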

Other observations

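Loss of CKI1, PCT1 or CPT1 is known to let yeast live without Sec14, a transfer protein for phosphatidylinositol and phosphatidylcholine that keeps Golgi secretion going, as does loss of SAC1 or KES1. SEC14 read 3068 in acs2-Ts1 and 4579 in ACS2, a log2 ratio of -0.58. SAC1, a phosphoinositide phosphatase, read 395 in acs2-Ts1 and 1516 in ACS2 (3.83-fold lower), and KES1, an oxysterol-binding protein, read 1454 in acs2-Ts1 and 2654 in ACS2 (1.83-fold lower). On the log2 scale relative to the all-gene median, the bypass genes lay at -1.11 for CKI1, -0.88 for CPT1 and -0.81 for SAC1, and above it at 0.55 for PCT1 and 0.26 for KES1. SEC14 lay at 0.55.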
